A study of Mus musculus with 9 samples.

Results

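The secreted Wnt antagonists described here are the 9 genes Dkk1, Dkk2, Dkk3, Sfrp1, Sfrp2, Sfrp4, Frzb, Wif1 and Notum. They were chosen by name, as every probe set annotated to one of these symbols alone, which gave 16 of the 45037 probe sets tested and 9 of 18193 genes. Sfrp1 had 5 probe sets, Dkk1, Dkk3 and Frzb had 2 each, and the other genes had 1. Their RNA was read from 9 Affymetrix mouse arrays, 3 per group. The cells were sclerotome from wild type E11.5 mouse embryos, the ventral part of the somite, freed of notochord, and grown as micromass, a dense drop of mesenchyme that can form cartilage. One group was untreated, one received 50 ng/ml BMP4 and one received 5 ng/ml TGF-β1 for 8 h, and all groups shared the same medium with serum and ascorbic acid. The sample records start the treatment after overnight culture, whereas the culture methods add the factors once the cells had attached, and which holds for these arrays is not known. The experiment was set up on separate occasions for each replicate, and how many embryos went into a culture is not stated in those sources.

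Wnt proteins are secreted signals that bind Frizzled receptors and LRP5/6 co-receptors and, in the canonical branch, stabilise β-catenin, which acts with TCF/LEF factors in the nucleus. Secreted antagonists act outside the cell: Dickkopf proteins such as Dkk1 and Dkk2 bind LRP5/6, whereas secreted Frizzled-related proteins (the Sfrp genes and Frzb) and Wif1 bind Wnt proteins themselves, and Notum is an enzyme that removes the lipid a Wnt protein needs for activity. In the embryonic skeleton, Wnt signals help to decide between cartilage and other fates, Frzb and Wif1 are known from developing cartilage, and Sfrp2 from the somite.

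All values below are log2 signals that had been centred on each probe set's own median over the 9 arrays. A value of 0 is thus that median and not the absence of RNA, and a value of 1 is a doubling relative to it. Levels cannot be compared between genes, and whether a gene was above background cannot be judged. Differences are log2 differences with the standard error (SE) of the limma model, n = 3 arrays per group, and adjusted p values from limma are two-sided and Benjamini-Hochberg adjusted over all 45037 probe sets. The word called marks a probe set with an adjusted p under 0.05. In a bulk culture, fewer cells that express a gene and less RNA per cell cannot be told apart.

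Of the 9 genes, 5 had an entry in the RefSeq promoter table (mouse build GRCm38.p6). The bases just before the annotated gene start are shown for those 4 whose window lay wholly or partly outside the gene. Of them, 2 (Dkk1, Wif1) were higher with BMP4 and the other 2 (Dkk2, Frzb) were lower with both factors. Each sequence runs 5′ to 3′ on the strand of the gene, and capitals mark CTTTGA, the core bound by TCF/LEF factors, or its reverse complement TCAAAG. Each window holds 250 bases, or 224 for Dkk2, where 26 bases inside the gene were cut. Dkk3, Sfrp1, Sfrp4 and Notum had no entry.
Dkk1, minus strand, chr19:30549497-30549746: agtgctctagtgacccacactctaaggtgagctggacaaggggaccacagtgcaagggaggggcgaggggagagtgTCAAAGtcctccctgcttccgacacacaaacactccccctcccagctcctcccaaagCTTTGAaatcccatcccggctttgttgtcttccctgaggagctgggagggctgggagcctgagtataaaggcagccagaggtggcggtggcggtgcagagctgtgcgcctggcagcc
Wif1, plus strand, chr10:121033754-121034003: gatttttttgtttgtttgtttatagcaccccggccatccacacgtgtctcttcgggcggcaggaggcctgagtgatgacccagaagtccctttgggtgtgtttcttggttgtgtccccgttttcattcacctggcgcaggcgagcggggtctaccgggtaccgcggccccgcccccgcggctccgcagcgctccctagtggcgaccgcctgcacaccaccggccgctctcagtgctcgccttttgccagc
Dkk2, plus strand, chr3:132085042-132085265: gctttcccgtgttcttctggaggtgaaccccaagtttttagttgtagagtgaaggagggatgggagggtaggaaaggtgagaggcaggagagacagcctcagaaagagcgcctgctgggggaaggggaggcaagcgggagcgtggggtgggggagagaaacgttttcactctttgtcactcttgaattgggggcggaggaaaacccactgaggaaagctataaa
Frzb, minus strand, chr2:80447397-80447646: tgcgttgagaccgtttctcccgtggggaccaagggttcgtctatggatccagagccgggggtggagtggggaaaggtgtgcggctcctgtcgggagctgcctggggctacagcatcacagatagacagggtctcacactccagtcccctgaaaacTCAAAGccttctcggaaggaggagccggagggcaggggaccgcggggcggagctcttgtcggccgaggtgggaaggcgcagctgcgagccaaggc

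The windows were searched on both strands for CTTTGA, for CAGAC, a core bound by Smad proteins, and for GGCGCC, a GC-rich element bound by Smads of the BMP branch. For Dkk2 the search took all 250 bases. CTTTGA occurred at 2 places before Dkk1 (174 and 117 bases upstream of the start, on the minus and plus strand relative to the gene) and at 1 place before Frzb (95 bases upstream, on the minus strand), and in neither the Wif1 nor the Dkk2 window. CAGAC was in none of the 4 printed windows, and GGCGCC was in none either. The Sfrp2 window, which lies within the annotated gene and is not printed, held CAGAC 1 time. Among 32851 promoter windows of 250 bases, 13.8% held CTTTGA, 42.2% held CAGAC and 9.59% held GGCGCC. A match is only a stretch of letters, and the absence of a match concerns these windows alone.

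The comparison of BMP4 with untreated asked which antagonists respond within 8 h, and they moved in both directions. Dkk1, Notum and Wif1 rose 2.60- to 4.69-fold, whereas Dkk2, Sfrp2 and Frzb fell 1.48- to 3.02-fold. By gene, with each gene read by its probe set of largest variance, 3 of 9 were called higher and 3 lower, where 3.45% and 4.51% of all genes were called higher and lower. By probe set, 4 of 16 were called higher and 5 lower, against 2.31% and 3.13% of all probe sets. Blocking on the replicate number gave 12 calls in place of 9, adding both Dkk3 probe sets and Sfrp1 1460187_at as lower. The shares of all probe sets given here are for the fit without the block. The BMP4 and untreated arrays did not overlap for 13 of the 16 probe sets, against 20.0% of all probe sets. The median size of the difference was 0.63 over the 16 probe sets and 0.10 over all.

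Fewer of them were called with TGF-β1, and without the replicate number in the model all of those were lower. Dkk2, Sfrp2 and Frzb fell 1.82- to 2.76-fold and 0 of the 9 genes were called higher, where 4.21% of all genes were called lower and 2.54% higher. By probe set, 3 of 16 were called lower and 0 higher in limma, against 2.60% and 1.83% of all. Of the 16, 5 had an unadjusted p under 0.05, a threshold at which no share of all probe sets is given. In the fit that blocks on the replicate number, 4 of the 16 were called, the same 3 lower and Sfrp1 1460187_at higher (adjusted p = 0.031). Again the shares of all probe sets are for the fit without the block. The TGF-β1 arrays lay clear of the untreated arrays for 5 of the 16, against 21.8% of all probe sets. The median size of the difference was 0.32, and 0.11 over all probe sets. Both comparisons use the same 3 untreated arrays, so the falls that they share in Dkk2, Sfrp2 and Frzb are not independent of each other, and the comparison between the factors uses the same treated arrays again.

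Set directly against each other, the TGF-β1 arrays were lower than the BMP4 arrays in 3 of 9 genes (Dkk1, Wif1 and Notum) and higher in 2 (Dkk3 and Sfrp1), where 5.38% and 4.73% of all genes were called lower and higher. By probe set, 4 of 16 were lower and 5 higher, against 3.49% and 3.41% of all. For 12 of the 16 the 2 groups did not overlap, as for 25.5% of all probe sets. Here the median size of the difference was 0.59, and 0.11 over all.

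**Figure D1:**
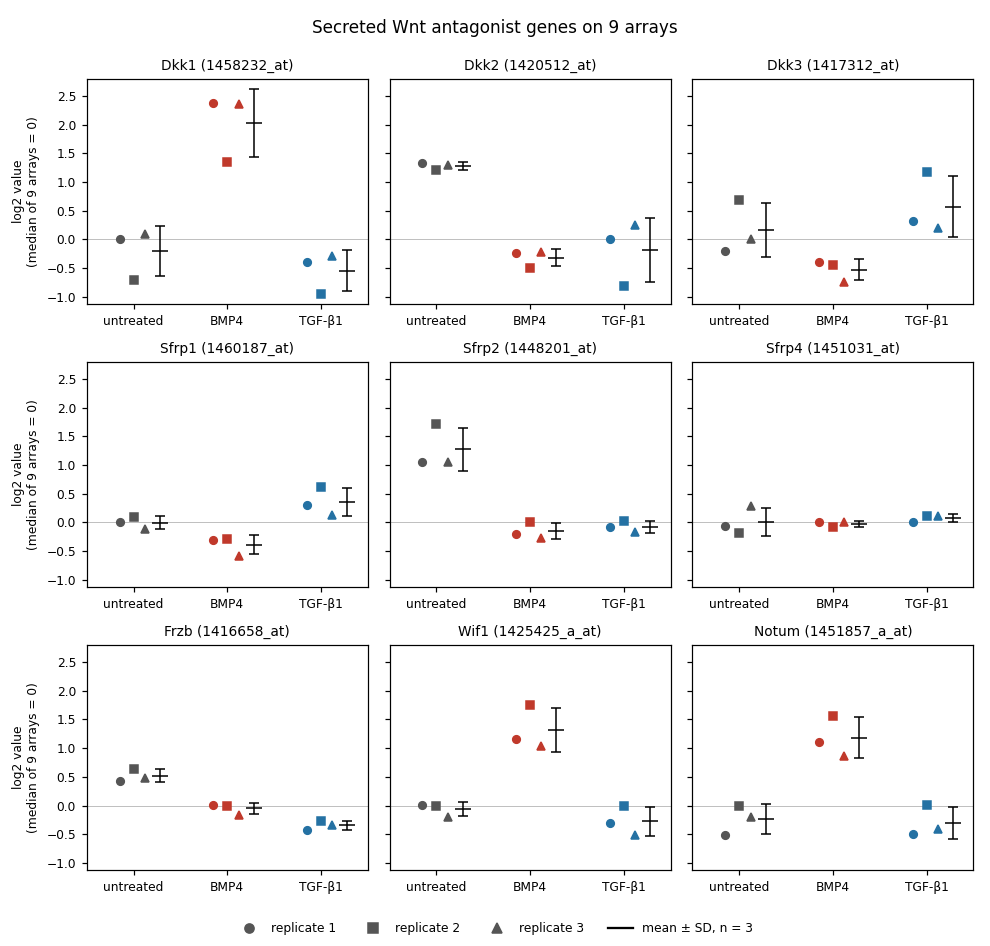
Centred log2 value (y axis) of the probe set of largest variance of each of the 9 antagonists on each array, by treatment, where shapes mark the replicates and bars the mean ± SD of 3 arrays. Dkk1, Wif1 and Notum lie highest with BMP4, with values from 0.86 to 2.38, whereas Dkk2 and Sfrp2 lie above 1 on every untreated array and at 0.25 or below on every treated one.

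Among the Dickkopf genes, Dkk1, whose protein blocks canonical signalling at LRP5/6, had the largest difference of all 9 genes with BMP4. On probe set 1458232_at its values were 0, -0.71 and 0.09 on the untreated arrays. They were 2.38, 1.34 and 2.35 with BMP4 and -0.39, -0.94 and -0.29 with TGF-β1. Every BMP4 array lay far above every other array, while the TGF-β1 and untreated arrays overlapped. The rise with BMP4 was 4.69-fold (2.23 ± 0.30, adjusted p = 0.0025), and the other probe set, 1420360_at, gave 4.21-fold (2.07 ± 0.30, adjusted p = 0.0031). TGF-β1 gave -0.34 ± 0.30 (adjusted p = 0.60, 95% confidence interval -1.01 to 0.34) and -0.30 ± 0.30 on the other probe set (0.64), so that a change of this size could not be told from none. Dkk1 was 5.92-fold lower with TGF-β1 than with BMP4 (-2.57 ± 0.30, adjusted p = 0.00084). In each group the array numbered 2 gave the lowest Dkk1 value on both probe sets, 0.60 to 1.02 below the mean of the other 2 on 1458232_at.

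Dkk2, which also binds LRP5/6 and can activate or inhibit the pathway depending on the co-receptors present, went the other way from Dkk1. Its single probe set had values of 1.33, 1.20 and 1.29 untreated, of -0.24, -0.49 and -0.23 with BMP4, and of 0, -0.81 and 0.25 with TGF-β1. The untreated arrays lay close together and above all 6 treated arrays, whereas the TGF-β1 arrays were spread over more than 1 log2 unit. Dkk2 fell 3.02-fold with BMP4 (-1.60 ± 0.22, adjusted p = 0.0027) and 2.76-fold with TGF-β1 (-1.46 ± 0.22, adjusted p = 0.0063). Between the factors the difference was 0.13 ± 0.22 (adjusted p = 0.80), with a 95% confidence interval from -0.36 to 0.62 that still holds differences of moderate size in either direction.

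Dkk3 is a divergent Dickkopf gene whose protein does not bind LRP5/6 in the way of Dkk1. On 1417312_at the values were -0.20, 0.69 and 0 untreated, -0.39, -0.45 and -0.74 with BMP4, and 0.32, 1.17 and 0.20 with TGF-β1. The BMP4 arrays were the 3 lowest, and the array numbered 2 was far above its partners in the untreated and TGF-β1 groups. Neither factor differed from untreated past the threshold without a block: BMP4 gave -0.69 ± 0.27 (adjusted p = 0.22) and TGF-β1 gave 0.40 ± 0.27 (0.47), and on 1448669_at they gave -0.71 ± 0.23 (0.12) and 0.44 ± 0.23 (0.35). Blocking on the replicate number, both were called lower with BMP4 (adjusted p = 0.040 on 1417312_at and 0.047 on 1448669_at, with ranges over the limma alternatives of 0.040 to 0.47 and 0.047 to 0.31). Between the factors Dkk3 was called, 2.14-fold higher with TGF-β1 on 1417312_at (1.09 ± 0.27, adjusted p = 0.041) and 2.22-fold on 1448669_at (1.15 ± 0.23, adjusted p = 0.015). These calls depended on single arrays. On 1417312_at the call was lost without untreated replicate 3 (adjusted p = 0.058), BMP4 replicates 1, 2 or 3 (0.096, 0.099 and 0.11) or TGF-β1 replicates 1 or 2 (0.067 and 0.10), within a range of 0.0042 to 0.11 over the limma alternatives, and on 1448669_at without BMP4 replicate 2 (0.060, range 0.0028 to 0.060).

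**Figure D2:**
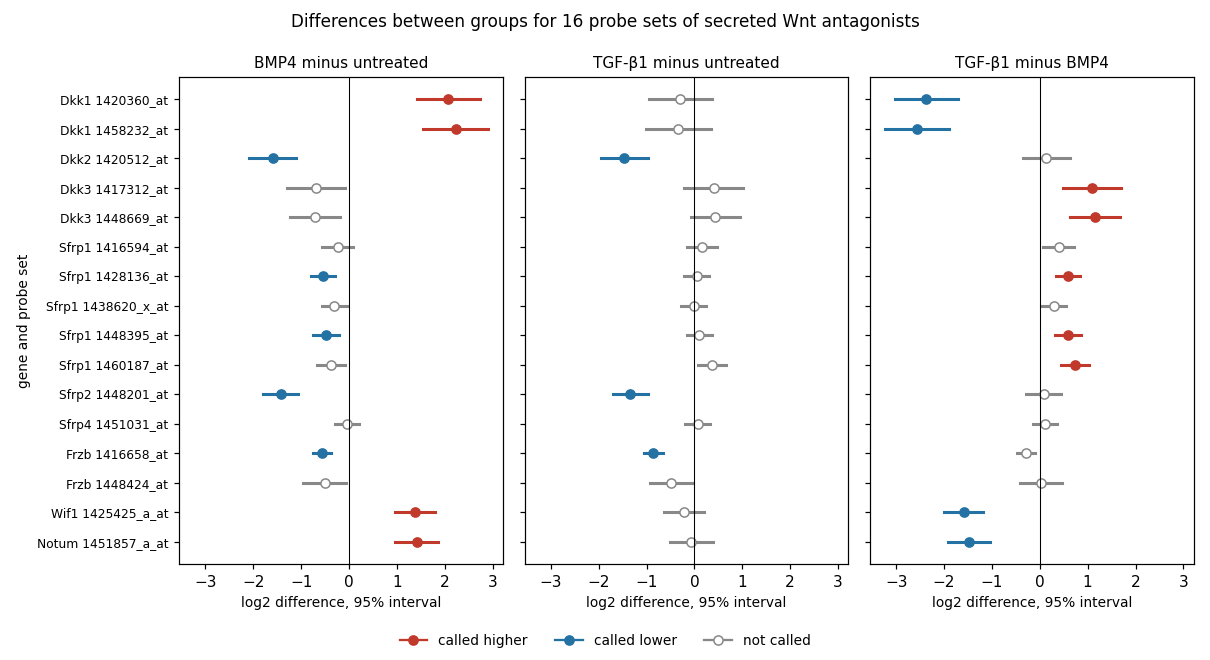
Log2 difference (x axis) with its 95% confidence interval for each of the 16 probe sets (y axis) in the 3 comparisons, filled red (higher) or blue (lower) where called and open grey where not. In the comparison of BMP4 with untreated the probe sets of Dkk1, Wif1 and Notum lie from 1.38 to 2.23 and those of Dkk2 and Sfrp2 at -1.60 and -1.43, and with TGF-β1 only Dkk2, Sfrp2 and 1 probe set of Frzb are called.

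Of the antagonists that bind Wnt proteins, Wif1 (Wnt inhibitory factor 1) rose with BMP4. Its values were 0.01, 0 and -0.20 untreated, 1.15, 1.76 and 1.03 with BMP4, and -0.31, -0.01 and -0.51 with TGF-β1. The lowest BMP4 array was thus more than 1 log2 unit above the highest of the other 6. The rise was 2.60-fold (1.38 ± 0.18, adjusted p = 0.0023). TGF-β1 gave -0.22 ± 0.18 (adjusted p = 0.58, 95% confidence interval -0.63 to 0.20), and Wif1 was 3.02-fold lower with TGF-β1 than with BMP4 (-1.59 ± 0.18, adjusted p = 0.00075).

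Sfrp2, which codes for a secreted protein with a Frizzled-like domain, had the smallest adjusted p of the 9 genes with BMP4. It had 1.06, 1.71 and 1.05 on the untreated arrays, -0.19, 0 and -0.27 with BMP4, and -0.08, 0.03 and -0.17 with TGF-β1. All 6 treated arrays lay close together and more than 1 log2 unit below the untreated arrays. The fall was 2.69-fold with BMP4 (-1.43 ± 0.16, adjusted p = 0.0010) and 2.54-fold with TGF-β1 (-1.34 ± 0.16, adjusted p = 0.0021). Between the factors the difference was 0.08 ± 0.16 (adjusted p = 0.84, 95% confidence interval -0.28 to 0.45).

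Frzb, also known as Sfrp3 and first known from cartilage, fell with both factors on 1 of its 2 probe sets. On 1416658_at the untreated arrays had 0.43, 0.64 and 0.48, the BMP4 arrays 0.01, 0 and -0.16, and the TGF-β1 arrays -0.42, -0.27 and -0.33. The groups stand in 3 steps that do not overlap. The fall was 1.48-fold with BMP4 (-0.57 ± 0.09, adjusted p = 0.0045) and 1.82-fold with TGF-β1 (-0.86 ± 0.09, adjusted p = 0.00076), while the step between the factors missed the threshold (-0.29 ± 0.09, adjusted p = 0.080). In the fit that blocks on the replicate number, which the check of pairing allows between these groups, that step was called (adjusted p = 0.044, range over the limma alternatives 0.044 to 0.23). The other probe set, 1448424_at, had 0.01, 0.83 and 0.35 untreated, 0, 0.13 and -0.46 with BMP4, and -0.04, -0.04 and -0.17 with TGF-β1. It gave -0.51 ± 0.20 with BMP4 (adjusted p = 0.22) and -0.48 ± 0.20 with TGF-β1 (0.23), in the same direction as the first but with a wider spread.

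Sfrp1, whose protein is close to Sfrp2 in build, was measured by 5 probe sets that did not all give the same call. On the most variable one, 1460187_at, the values were 0, 0.10 and -0.12 untreated, -0.30, -0.29 and -0.58 with BMP4, and 0.30, 0.62 and 0.14 with TGF-β1. The 3 groups did not overlap there, with BMP4 lowest and TGF-β1 highest. The difference with BMP4 missed the threshold on this probe set (-0.38 ± 0.13, adjusted p = 0.15), although it was called with the block (0.023, range 0.023 to 0.34), and all 5 had a difference below 0, from -0.24 to -0.54. It was called on 2 of them, 1428136_at (1.46-fold, -0.54 ± 0.11, adjusted p = 0.023) and 1448395_at (1.40-fold, -0.48 ± 0.12, adjusted p = 0.044). Both calls depended on single arrays: 1428136_at was not called without untreated replicates 1 or 3 (adjusted p = 0.082 and 0.071) or BMP4 replicates 1 or 2 (0.070 and 0.093), and 1448395_at not without any 1 untreated array (0.12, 0.092 and 0.095), any 1 BMP4 array (0.16, 0.11 and 0.052) or TGF-β1 replicate 1 (0.067). The ranges over the limma alternatives were 0.0096 to 0.093 and 0.017 to 0.16.

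With TGF-β1 no Sfrp1 probe set was called against untreated, the 5 differences running from -0.02 to 0.36 (adjusted p from 0.17 to 0.95). In the fit that blocks on the replicate number, 1460187_at was called higher with TGF-β1 (1.28-fold, 0.36, adjusted p = 0.031, range over the limma alternatives 0.031 to 0.37). Against BMP4, 3 of the 5 were higher with TGF-β1: 1460187_at (1.67-fold, 0.74 ± 0.13, adjusted p = 0.0078), 1428136_at (1.50-fold, 0.59 ± 0.11, 0.013) and 1448395_at (1.50-fold, 0.59 ± 0.12, 0.015). The call on 1428136_at was lost without BMP4 replicate 2 (0.056) or TGF-β1 replicate 2 (0.052), and that on 1448395_at without BMP4 replicate 1 (0.066), with ranges of 0.0052 to 0.056 and 0.010 to 0.091 over the limma alternatives. A further one, 1416594_at, had 0.40 ± 0.14 (0.15) and was called with the block (0.014, range 0.014 to 0.39), and 1438620_x_at, a probe set of the kind that can also bind related transcripts, had 0.29 ± 0.12 (0.20).

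Sfrp4 was the member with no call in any comparison. Its values were -0.07, -0.18 and 0.29 untreated, 0, -0.08 and 0.01 with BMP4, and 0, 0.12 and 0.12 with TGF-β1. The groups overlapped throughout. BMP4 gave -0.04 ± 0.11 (adjusted p = 0.93, 95% confidence interval -0.29 to 0.22) and TGF-β1 gave 0.07 ± 0.11 (0.80, -0.19 to 0.32). Since the centred values keep no level, a gene below background would look the same.

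**Figure D3:**
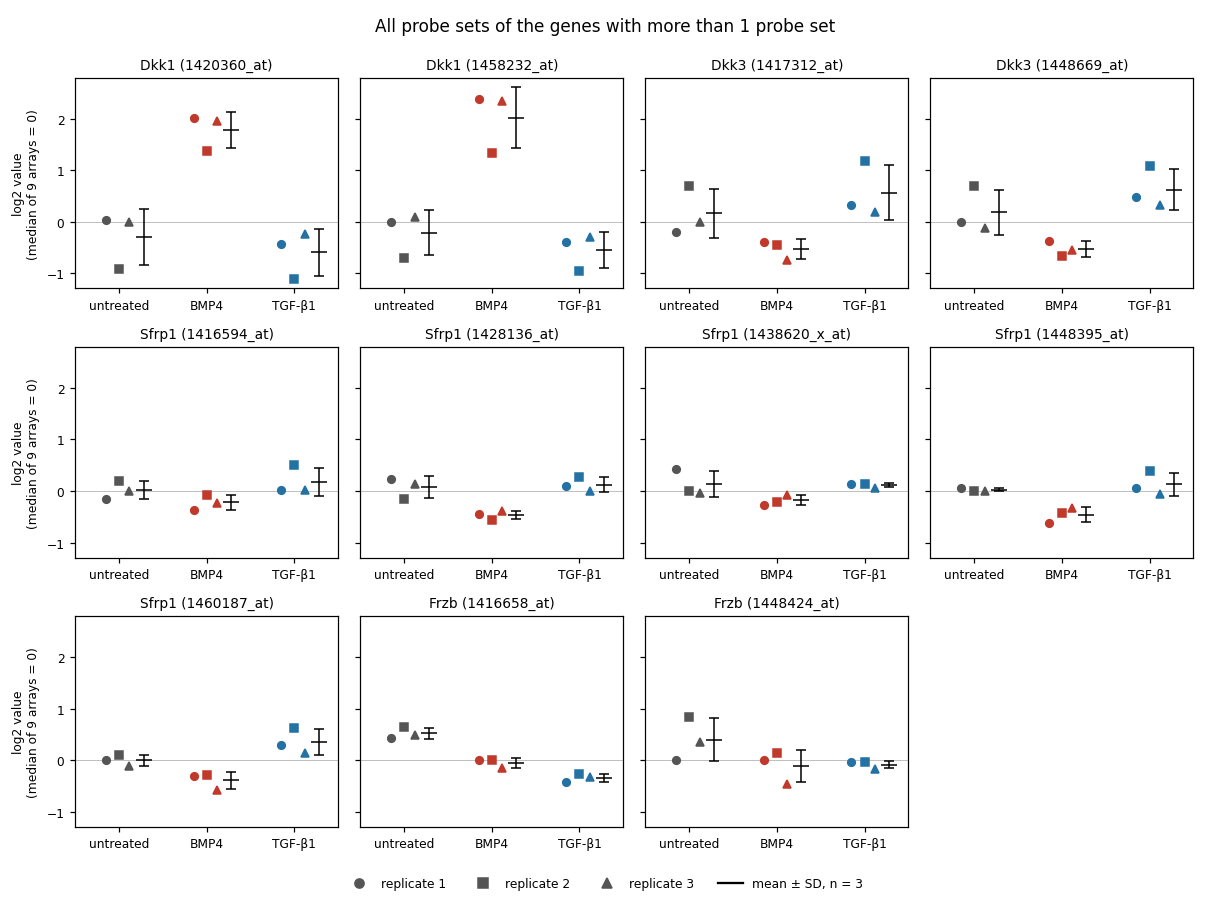
Centred log2 value (y axis) on the 9 arrays for every probe set of the 4 genes with more than 1, Dkk1, Dkk3, Sfrp1 and Frzb, 1 panel per probe set, where shapes mark the replicates and bars the mean ± SD of 3 arrays. Both Dkk1 probe sets rise together on the BMP4 arrays to between 1.34 and 2.38, whereas the 5 Sfrp1 probe sets stay between -0.62 and 0.62.

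Where a gene had several probe sets, they were compared over the 9 arrays by their root mean square difference in log2 units. It was 0.14 for the Dkk3 pair, 0.21 for the Dkk1 pair, 0.25 for the Frzb pair and 0.13 to 0.28 for the Sfrp1 pairs. For Dkk1 and Dkk3 this is small beside the differences between the factors, while for Sfrp1 it is of the same order as the differences from untreated.

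Notum, the carboxylesterase that removes palmitoleate from Wnt proteins, had a pattern close to that of Wif1. It had -0.51, 0 and -0.19 untreated, 1.11, 1.57 and 0.86 with BMP4, and -0.50, 0.02 and -0.41 with TGF-β1. Every BMP4 array stood above every other array, and the TGF-β1 arrays spanned almost the same range as the untreated ones. Notum rose 2.66-fold with BMP4 (1.41 ± 0.20, adjusted p = 0.0031). TGF-β1 gave -0.06 ± 0.20 (adjusted p = 0.90, 95% confidence interval -0.51 to 0.38), and the direct difference between the factors was 2.79-fold (-1.48 ± 0.20, adjusted p = 0.0018). Within each group the array numbered 2 was the highest for Notum and for Sfrp2, opposite to Dkk1.

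The genes nearest in pattern were found by the root mean square difference of the centred log2 values over the 9 arrays among 18193 genes, as a description. Dkk1 lay nearest to Cadps (0.30), Gata3 (0.33) and Chrdl2 (0.35). Notum and Wif1 had a neighbour in common, Phlda2 (0.14 from each), beside Plac8 and Sgk3 for Notum (0.18 and 0.20) and Chst11 and Sox5 for Wif1 (0.14 and 0.15). Of these, Gata3 and Sox5 code for transcription factors and Chrdl2 for a secreted BMP-binding protein. Dkk2 was nearest to Cxcl13 (0.29), Ccn3 (0.29) and Efemp1 (0.31), and Sfrp2 to Mgst1 (0.15), Agtr1a (0.19) and Gprin2 (0.19). Frzb lay nearest to Cul9 (0.088), Fut10 (0.10) and Ctso (0.11), Sfrp1 to Tmem170b (0.089), Sema4d (0.094) and Dhrs3 (0.11), and Dkk3 to Tmem150c (0.15), Cys1 (0.19) and Crym (0.19).

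Genes of the rest of the Wnt pathway were read in the same way from lists of other antagonists, ligands, R-spondins, receptors, intracellular components and target genes. Their counts stand beside 3.45% of all genes called higher and 4.51% lower with BMP4, and 2.54% and 4.21% with TGF-β1. In a list of this length a single call is thus near the share over all genes. These shares are for the fit without the block, and none is given for the blocked counts or for counts at unadjusted p. At its own threshold, the methods' t-test called 433 of the 45037 probe sets with BMP4 and 253 with TGF-β1. In the list of 12 other antagonists, 3 rose with BMP4 and 1 fell, with a median difference of 0.16 beside 0.0026 over all genes. Sost, whose protein sclerostin binds LRP5/6 and is best known from bone, had -0.27, -0.57 and 0 untreated, 2.18, 0.84 and 1.93 with BMP4, and -0.15, -0.30 and 0.08 with TGF-β1. It rose 3.82-fold with BMP4 (1.93 ± 0.29, adjusted p = 0.0044), and as for Dkk1 the array numbered 2 was the lowest of its group with BMP4. Trabd2b, which codes for the Wnt-cleaving protease Tiki2, rose 2.36-fold (1.24 ± 0.10, adjusted p = 0.00015) and Draxin, a secreted protein first known from axon guidance, rose 1.59-fold (0.67 ± 0.11, 0.0052). Apcdd1, a membrane-bound inhibitor, fell 2.25-fold (-1.17 ± 0.25, 0.022), a call that was lost without untreated replicates 1 or 2 (adjusted p = 0.077 and 0.071) or BMP4 replicate 2 (0.057), within a range of 0.0042 to 0.077. TGF-β1 lowered 1 of the 12, Sostdc1, a relative of Sost, by 1.58-fold (-0.66 ± 0.11, adjusted p = 0.0097), and with the replicate block 1 was lower and 1 higher. The remaining Dickkopf and Sfrp genes on the array, Dkk4 and Sfrp5, had 0.16 ± 0.11 (adjusted p = 0.55) and -0.08 ± 0.12 (0.81) with BMP4, and 0.19 ± 0.11 (0.41) and 0.14 ± 0.12 (0.57) with TGF-β1.

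Of 19 Wnt ligand genes, 2 fell with BMP4 and 0 rose without the block (median -0.04), where 6 had an unadjusted p under 0.05, the block called 4 lower and 1 higher and the methods' t-test called 1 in all. The 2 were Wnt5b (2.54-fold, -1.34 ± 0.20, adjusted p = 0.0038) and Wnt11 (1.81-fold, -0.86 ± 0.12, 0.0024), which mostly signal without β-catenin. With TGF-β1, 1 of the 19 fell, Wnt5a (1.99-fold, -0.996 ± 0.14, adjusted p = 0.0042), and the median was 0.09. With the block 1 ligand was lower and 1 higher. Among the 4 R-spondins, secreted proteins that strengthen Wnt signals, Rspo1 fell with BMP4 (2.15-fold, -1.10 ± 0.12, 0.00085) and with TGF-β1 (1.78-fold, -0.83 ± 0.12, 0.0059), Rspo2 fell with TGF-β1 (2.65-fold, -1.41 ± 0.16, 0.0015), and Rspo3 rose with BMP4 (1.53-fold, 0.61 ± 0.14, 0.029). With the block 2 R-spondins were lower and 1 higher with BMP4, and 3 were lower with TGF-β1. The Rspo3 call was lost without untreated replicates 2 or 3 (adjusted p = 0.085 and 0.055) or BMP4 replicates 1 or 3 (0.11 and 0.077), within a range of 0.0030 to 0.11.

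Of 19 measured receptors and co-receptors, 1 rose and 2 fell with BMP4, and 2 and 4 with the block. The 2 falls were in the R-spondin receptor gene Lgr5 (2.31-fold lower, -1.21 ± 0.15, adjusted p = 0.0015) and Fzd2 (1.61-fold lower, -0.68 ± 0.09, 0.0021). The co-receptor genes on which Dickkopf proteins and sclerostin act, Lrp5 and Lrp6, both had 0.22 with BMP4 (SE 0.11 and 0.15, adjusted p = 0.35 and 0.56). Fzd9 rose 1.61-fold (0.68 ± 0.17, 0.042), but leaving out 1 array ended the call for 8 of the 9 arrays (the exception being TGF-β1 replicate 2), with adjusted p up to 0.12. With TGF-β1, limma called 0 of the 19 (8 at unadjusted p under 0.05, 0 by the methods' t-test, which takes unequal variances and at least 2-fold), and 2 were higher and 2 lower with the replicate block. Of 14 intracellular components, 1 rose with BMP4, Ctnnbip1, which codes for an inhibitor that holds β-catenin away from TCF/LEF factors (1.79-fold, 0.84 ± 0.12, 0.0030). With TGF-β1, limma called 0 of the 14 (3 at unadjusted p under 0.05, 0 by the methods' t-test), and 1 was lower with the replicate block.

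Among 15 measured Wnt target genes, 5 rose and 1 fell with BMP4 (median 0.11 beside 0.0026 over all genes), and 2 rose with TGF-β1 (median 0.03 beside 0.0096). With the block 6 were higher and 1 lower with BMP4, and 2 were higher with TGF-β1. The methods' t-test, which asks for at least 2-fold, called 0 with BMP4 and 2 with TGF-β1. Myc and Lef1 rose 1.99-fold (1.00 ± 0.09, adjusted p = 0.00030) and 1.96-fold (0.97 ± 0.13, 0.0020) with BMP4, and Nkd1, a feedback inhibitor, rose 1.47-fold (0.55 ± 0.07, 0.0021). The receptor gene Tnfrsf19 fell 1.66-fold (-0.74 ± 0.13, 0.010). Prickle1 and Nkd2 rose less with BMP4, 1.38-fold (0.47 ± 0.11, adjusted p = 0.030) and 1.37-fold (0.45 ± 0.10, 0.034). Prickle1 was not called without untreated replicates 2 or 3 or any 1 BMP4 array (adjusted p up to 0.11), and for Nkd2 leaving out 1 array ended the call except with untreated replicate 1 (up to 0.11). Axin2, the most widely used target gene of canonical signalling, had -0.03 ± 0.16 with BMP4 (adjusted p = 0.96) and 0.01 ± 0.16 with TGF-β1 (0.99). With TGF-β1, Nkd2 rose 2.04-fold (1.03 ± 0.10, 0.00077) and Ccn4 2.64-fold (1.40 ± 0.27, 0.019). The Ccn4 call was lost without untreated replicate 2 (adjusted p = 0.067) or any 1 TGF-β1 array (0.075, 0.054 and 0.067), within a range of 0.00053 to 0.075.

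Between the factors, 4 of the 12 other antagonists were lower with TGF-β1 than with BMP4 and 1 was higher, where 5.38% and 4.73% of all genes were called lower and higher. Sost was 3.43-fold lower (-1.78 ± 0.29, adjusted p = 0.0055), Sostdc1 2.03-fold lower (-1.02 ± 0.11, 0.00046) and Trabd2b 1.94-fold lower (-0.95 ± 0.10, 0.00038), the same direction as Dkk1, Wif1 and Notum. Draxin was 1.41-fold lower (-0.50 ± 0.11, 0.019) and Apcdd1 2.21-fold higher (1.14 ± 0.25, 0.020). Draxin was not called without BMP4 replicate 1 or TGF-β1 replicates 1 or 2 (adjusted p = 0.081, 0.072 and 0.066), and Apcdd1 not without BMP4 replicate 2 or TGF-β1 replicate 2 (0.053 and 0.066).

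In the other lists the same comparison gave calls in both directions, beside the same shares over all genes, which are for the fit without the block. Wnt11 was higher with TGF-β1 (1.53-fold, 0.61 ± 0.12, adjusted p = 0.011) and so was Wnt5b (2.05-fold, 1.04 ± 0.20, 0.012, but 0.056 without BMP4 replicate 1), while Wnt5a was lower (1.46-fold, -0.54 ± 0.14, 0.043) and lost its call when any array other than untreated replicates 2 and 3 was left out (up to 0.15). Rspo3 was 2.10-fold lower (-1.07 ± 0.14, 0.0013) and Rspo2 1.74-fold lower (-0.80 ± 0.16, 0.015), the latter not called without BMP4 replicates 1 or 2 or TGF-β1 replicates 1 or 3 (up to 0.062). Of the receptors, Fzd9 was 2.13-fold lower (-1.09 ± 0.17, 0.0035), Lgr5 was 1.90-fold higher (0.93 ± 0.15, 0.0047) and Fzd5 was 2.08-fold higher (1.05 ± 0.26, 0.037). Fzd5 was not called without untreated replicate 1, BMP4 replicates 1 or 3 or any 1 TGF-β1 array (up to 0.14), and with the replicate block 6 receptors were higher and 2 lower. Among intracellular components, Ctnnbip1 was 1.65-fold lower (-0.72 ± 0.12, 0.0050), and Tcf7l2, a nuclear partner of β-catenin, was 1.88-fold lower (-0.91 ± 0.19, 0.018), but not called without BMP4 replicate 2 or TGF-β1 replicates 1 or 3 (up to 0.074). Of the target genes, 5 were lower with TGF-β1, among them Lef1 (2.01-fold) and Myc (1.88-fold), and 3 were higher, among them Ccn4 (3.84-fold) and Nkd2 (1.49-fold).

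**Figure D4:**
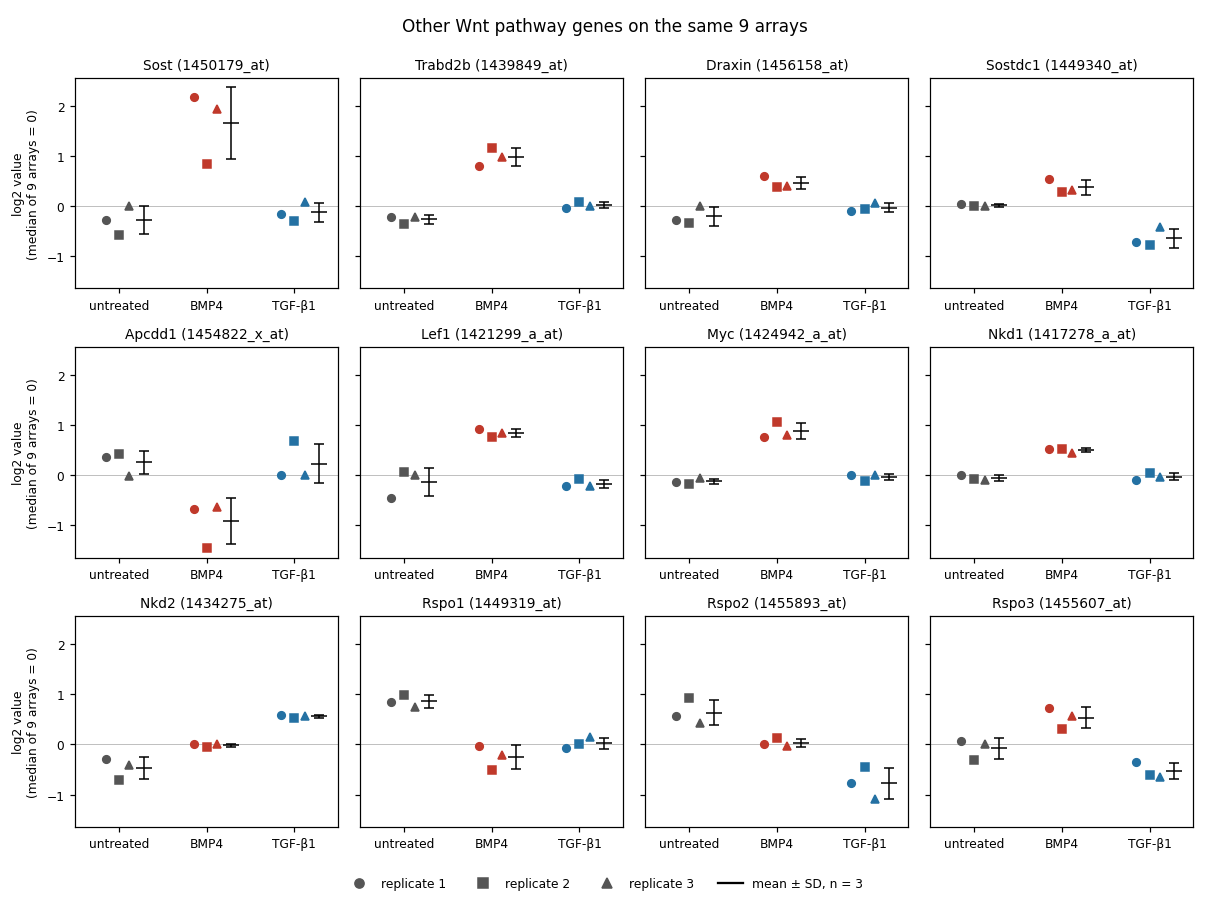
Centred log2 value (y axis) of 12 called genes from the wider Wnt pathway on each array, by treatment, where shapes mark the replicates and bars the mean ± SD of 3 arrays. Sost and Trabd2b lie highest on the BMP4 arrays (0.79 to 2.18), Rspo1 lies highest on the untreated arrays (0.73 to 0.98), and Rspo2 lies lowest on the TGF-β1 arrays (-1.08 to -0.46).

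Markers of the cells in culture were read on the same arrays, as mean centred values per list. The sclerotome list (11 genes) had array means of 0.003 to 0.44 untreated, -0.35 to -0.23 with BMP4 and -0.05 to 0.15 with TGF-β1, and 6 of its 11 genes fell and 1, Sox9, rose with BMP4. Skeletal muscle markers (13 genes) ranged from 0.03 to 0.26 untreated, from 0.0003 to 0.01 with BMP4 and from -0.18 to -0.12 with TGF-β1, and erythroid markers (5 genes) from -0.15 to 0.95, -0.33 to 0.03 and -0.37 to 0.07. Limma called 0 of these 5 with either factor, although 4 had an unadjusted p under 0.05 with BMP4 and 3 with TGF-β1, while the block and the methods' t-test called 0 as well. Counts of markers at unadjusted p have no share over all genes beside them, so no excess can be read from them. Neuron markers (11 genes) had 2 higher with BMP4, Sox2 (1.44 ± 0.20, adjusted p = 0.0029) and Map2 (0.64 ± 0.12, 0.012). Nefl was the 1 lower with BMP4 (-1.17 ± 0.27, 0.033) and the 1 lower with TGF-β1 (-1.68 ± 0.27, 0.0083). With the replicate block 1 neuron marker was higher and 3 were lower with TGF-β1. The block also called 7 skeletal muscle markers lower with TGF-β1, where the fit without it called 1, and the shares over all genes above are for the latter. With BMP4 the fit without the block called 1 of the 13 muscle markers higher, Myf5 (1.78-fold, 0.83 ± 0.11, adjusted p = 0.0021). It called 1 lower, Mymk (1.36-fold, -0.45 ± 0.09, 0.022). Of endothelial markers (8 genes) limma called 0 with either factor (1 with BMP4 and 0 with TGF-β1 at unadjusted p under 0.05, 0 by the methods' t-test, and 1 higher with BMP4 with the block). Notochord and epithelial markers (6 genes) had array means of -0.06 to 0.04 untreated, -0.44 to -0.14 with BMP4 and 0.04 to 0.16 with TGF-β1. Only 1 of the 6 was called with BMP4, Krt18, a keratin gene, which was 2.45-fold lower (-1.29 ± 0.15, adjusted p = 0.00096). The differences of the rest ran from -0.20 to 0.12, so the lower means with BMP4 lean on Krt18. T and Noto, also on this list, were not matched to a probe set by symbol and so were not read. Macrophage markers (8 genes) had -0.05 to 0.25, -0.05 to 0.03 and -0.17 to -0.01, with Cd68 1.37-fold lower with TGF-β1 (-0.46 ± 0.09, adjusted p = 0.019) and 4 of the 8 at unadjusted p under 0.05. Of neural crest and glial markers (3 genes) limma called 0 with either factor (0 at unadjusted p under 0.05, and 0 by the block or the methods' t-test). Whether any of these markers are absent cannot be judged from centred values, and their part in the results above was not tested. Over whole arrays, the standard deviation of the centred values ran from 0.18 to 0.26, and no 2 arrays were identical.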

How the data were processed

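The deposited table holds log2 values that the authors made from 9 arrays (background subtraction and RMA, of unstated version). The labelled RNA of each array came from 50 ng of total RNA after 2 rounds of amplification. All 45101 rows had a median of 0 across arrays (tolerance 1e-06), so that levels and signal over background are lost. The 64 control probe sets were left out and no filter on signal was set. Probe sets were named from the platform annotation: 34945 of 45037 carried 1 symbol, 932 several and 9160 none, and 0 symbols changed after a check against RefSeq. A gene was represented by its probe set of largest variance.

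The 3 groups were fitted in 1 linear model over the 9 arrays with limma 3.58.1 in R 4.3.3 (6 residual and 4.01 prior degrees of freedom), tested on simulated data. Figures were drawn in Python 3.11.15 with matplotlib 3.10.9. The members, lists and tests were chosen with earlier results of these data known. All member probe sets are reported. From the other lists the text names called genes, at most 5 per list and comparison in order of size, and in addition Nkd2 with BMP4 and Dkk4, Sfrp5, Lrp5, Lrp6 and Axin2, which were chosen after their values were seen. The 3 nearest genes are named for each member called at least once.

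Deviations from the group means were correlated between same-numbered arrays. For TGF-β1 the correlations were 0.14, 0.49 and 0.28 with untreated and 0.29, 0.50 and 0.38 with BMP4, so the numbers were taken to pair those arrays. For BMP4 with untreated they were -0.05, 0.50 and 0.24, so that 1 pair fell short. Untreated replicate 1 went better with replicate 3 of BMP4 (0.36) and of TGF-β1 (0.20) than with replicate 1 of either, so its pairing is uncertain. As the numbers were taken to tie both groups to TGF-β1, blocked values are given for BMP4 with untreated too. Calls against untreated that only the block made rest on this pairing. Alternatives were the replicate block, leaving out each array, the 3 arrays numbered 2 or the group outside the comparison, array weights, a robust prior, median centring, quantile normalization, a variance filter, 1 probe set per gene and the methods' t-test (unequal variances, at least 2-fold). The number of arrays limits the precision.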

Additional observations from a re-analysis of the deposited data

How the results depend on the processing

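The calls of Dkk1, Dkk2, Sfrp2, Frzb (1416658_at), Wif1 and Notum against untreated, and of Dkk1, Wif1, Notum and Sfrp1 (1460187_at) between the factors, were kept in all limma alternatives. Member probe sets called numbered 9 for BMP4 and 3 for TGF-β1 against untreated and 9 between the factors, and 7 to 9, 3 to 3 and 6 to 9 when 1 array was left out. With 1 probe set per gene, 5 of 9 genes were called between the factors. The methods' t-test called 6, 2 and 5 at its own threshold, where it called 433, 253 and 543 of all 45037 probe sets. After Benjamini-Hochberg adjustment it called 0, 0 and 0, and 0, 0 and 11 of all probe sets. Limma called 2449, 1993 and 3110 of all (1200 to 4069, 867 to 4029 and 1819 to 5252 over the limma alternatives). The t-test takes each variance from 3 arrays per group alone.

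With the replicate number as a block, 12, 4 and 11 member probe sets were called. The calls over all probe sets also differed between the limma alternatives, so these counts cannot be set beside the shares of the fit without the block. For BMP4 with untreated, where 1 of the 3 pairs of arrays did not deviate together, the block added both Dkk3 probe sets (adjusted p = 0.040 and 0.047) and Sfrp1 1460187_at (0.023), and array weights called Frzb 1416658_at between the factors (0.049). The call of Sfrp1 1448395_at with BMP4 was also lost without the 3 arrays numbered 2 (0.091) and after quantile normalization (0.050), and that between the factors without the 3 arrays numbered 2 (0.091).

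Only differences that were not called turned in direction, and the cause was not tested. Leaving out 1 array, Sfrp4 ranged from -0.13 to 0.10 with BMP4 and from -0.031 to 0.20 with TGF-β1. Over the same fits with TGF-β1, Sfrp1 ranged from -0.0009 to 0.25 (1416594_at), -0.07 to 0.13 (1428136_at), -0.10 to 0.13 (1438620_x_at) and -0.025 to 0.20 (1448395_at), and Notum from -0.22 to 0.053. Between the factors, Dkk2 ranged from -0.087 to 0.44 and Frzb 1448424_at from -0.15 to 0.14. Without the 3 arrays numbered 2, the TGF-β1 differences were -0.15 (Sfrp1 1428136_at), -0.037 (Sfrp1 1448395_at) and -0.052 (Sfrp4), and array weights gave -0.0026 for Sfrp1 1428136_at. Draxin with BMP4 and Sostdc1 with TGF-β1 were not called without the 3 arrays numbered 2 (adjusted p = 0.059 and 0.082), nor were Tnfrsf19 with BMP4 (0.065) and Wnt11 and Lgr5 between the factors (0.12 and 0.054), and Rspo3 with BMP4 was not called there (0.061) or in a fit of only the 2 groups (0.065). Prickle1 and Nkd2 with BMP4 also lost their calls without the arrays numbered 2 (both 0.14). Between the factors, so did Wnt5a (0.054), Draxin (0.091), Prickle1 (0.082) and Tnfrsf19 (0.10). In the fit of only the 2 groups, Nkd2 (0.094) and Fzd9 (0.077) with BMP4 were not called.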
